A study of Homo sapiens with 6 samples.

Results

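The genes described here are CREB1, CREM, ATF1, CRTC1, CRTC2, CRTC3, CREBBP, EP300, NR4A1 and PDE4D, the CREB transcription factors with their coactivators and a pair of their target genes. They were chosen by name, and each was matched to its row by its Ensembl identifier, which gave 10 of the 62492 genes listed. RNA-seq was carried out on polyA RNA of HCT116 cells, a human colorectal cancer line labelled as WT, treated with siControl (3 libraries) or siNONO (3 libraries), in Sets 1 to 3. Both siRNAs were used at 20 nM with a lipofection reagent, and the knockdown rests on 1 siRNA duplex in 1 cell line. NONO is an RNA- and DNA-binding protein of the nuclear paraspeckle, and the comparison asked how lowering it changed gene expression.

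CREB1, CREM and ATF1 encode closely related basic leucine zipper factors that bind the cAMP response element (CRE) as dimers. When cAMP rises, protein kinase A (PKA) phosphorylates CREB, which then recruits the acetyltransferases CBP and p300, while dephosphorylated CRTC proteins move to the nucleus and bind the same factor. NONO is known as a binding partner of CRTC2 that links it to RNA polymerase II on cAMP target genes, and NR4A1 and PDE4D are standard targets that respond to cAMP.

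The total estimated count per library ran from 21765393 to 32659002. NONO fell from 502 ± 11.8 CPM (the count scaled to library depth with TMM factors; SD, n = 3) in siControl to 95.1 ± 5.43 CPM in siNONO, or 18.9% of the siControl level. With edgeR, 7924 of 17000 genes tested (46.6%) had an adjusted p no higher than 0.05 and count as called here, with 3939 genes (23.2%) higher and 3985 genes (23.4%) lower in siNONO. With limma on log2(TPM + 1) this split was 1643 higher and 3614 lower. The median log2 fold change over all genes tested was then -0.071, beside -0.005 with edgeR. The epithelial markers EPCAM, CDH1, KRT8, KRT18 and KRT19 were present in every library, with counts from 2338 upwards, whereas VIL1 had at most 7.14. The immune markers PTPRC, CD3E and CD14 had at most 6 counts in any library. Of the endothelial markers, CDH5 had at most 1.00 and VWF had 21 to 39 counts (0.893 CPM in siControl and 1.18 CPM in siNONO). Of the fibroblast markers, COL1A1 was at 37.9 and 38.5 CPM in the 2 groups and COL1A2 was at 0 counts throughout. COL3A1 had 9 to 30 counts and DCN at most 2.

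Because CREB, CREM and ATF1 share one binding site, the promoters of the genes were first read for it. The motif searched was the palindromic CRE, TGACGTCA, and its 5-letter core, read as TGACG or CGTCA so that both strands are covered. RefSeq promoter windows (GRCh38.p14, 250 bases before to 50 bases after a start) were found for 9 of the 10 genes, in 26 windows. CRTC2 had no entry. Only CREM held the full motif, at a single site that lies in 2 overlapping windows. CRTC3, CREBBP and PDE4D held the core alone. In all promoter windows, 649 of 35116 (1.85%) held the full motif and 24.6% held the core, and per gene these shares were 2.25% and 28.4%. Those windows covered 27305 genes, fewer windows per gene than for the 9 genes here. The per-gene shares are thus not a like measure. The windows of NR4A1, CREB1, ATF1, CRTC1 and EP300 held neither, which says only that these letters are not in those windows. The sites in the 10 genes follow, without the cores of the upstream CREM start, together with the AREG promoter, which holds the full motif, and 1 of the 4 cores in the NR4A3 promoter. AREG and NR4A3 are shown because they changed most among the other CREB targets described further on. Capitals mark the motif.
CREM, chr10:35195841-35195870, + strand: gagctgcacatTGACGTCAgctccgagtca
CRTC3, chr15:90529731-90529757, + strand: ctttgtcgggcTGACGggggtccctcc
CREBBP, chr16:3880795-3880821, - strand: gccgtgcgtggTGACGccgcggggggg
CREBBP, chr16:3880779-3880805, - strand: ccgcgggggggTGACGcaccggcgtgc
PDE4D, chr5:59587667-59587693, - strand: gagggccccctTGACGccagcacatcc
AREG, chr4:74445060-74445089, + strand: cggccgggcctTGACGTCAtgggctgcggc
NR4A3, chr9:99821849-99821875, + strand: tgtggcataaaTGACGtgccgagagag

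All 10 genes passed the filter on low counts, and 6 were called, beside 46.6% of all genes tested. NR4A1 rose, and CREB1, CREM, CRTC2, CRTC3 and CREBBP fell, so that 1 was higher (23.2% of all genes) and 5 were lower (23.4% of all genes). ATF1, CRTC1, EP300 and PDE4D did not pass the test. The CPM values of the groups did not overlap for 7 of the 10, against 47.8% of all genes. The median log2 fold change over the 10 genes was -0.27, while that over all genes tested was -0.005. Over all genes called, the median size of the log2 fold change was 0.32. Of the 3985 genes called lower, 1604 fell further than CREB1. Of the 3939 genes called higher, 371 rose further than NR4A1. These levels are averages over all cells of a culture, so fewer cells with a transcript and less of it per cell cannot be told apart.

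**Figure D1:**
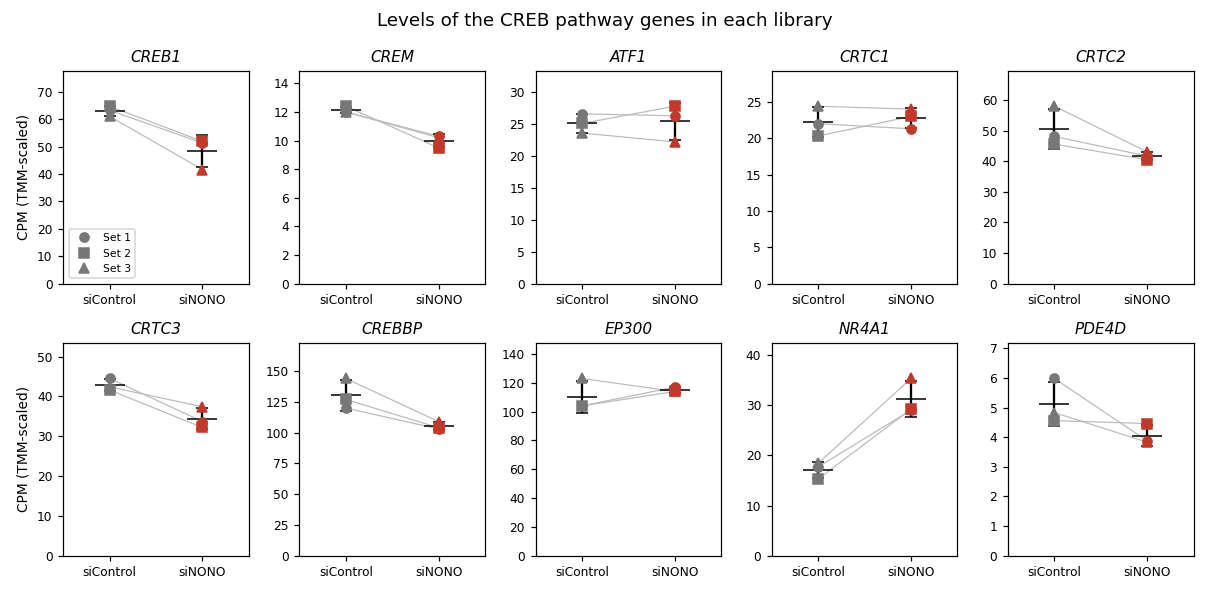
CPM (TMM-scaled) of each gene in the 3 siControl (grey) and 3 siNONO (red) libraries, with marker shapes for the Sets, thin lines joining libraries of a Set, and black bars for the mean and SD. NR4A1 is higher in all siNONO libraries (29.0 to 35.3 CPM) than in any siControl library (15.3 to 18.4 CPM), CREB1, CREM, CRTC2, CRTC3, CREBBP and PDE4D are lower, and ATF1, CRTC1 and EP300 overlap.

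CREB1, the founding member of the family (chr2:208394461-208470712, + strand, GRCh37), was at 63.2, 64.7 and 61.0 CPM in siControl Sets 1 to 3 and at 51.3, 51.9 and 41.6 CPM in siNONO. Every siNONO library was below every siControl library, and siNONO Set 3 was the lowest. The log2 fold change was -0.39 (SE 0.0516; edgeR adjusted p = 5.35e-05), a level 76.5% of that in siControl. The per-Set log2 ratios were -0.30, -0.32 and -0.55.

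CREM, which encodes activators and, from an internal promoter, the early repressor ICER (chr10:35415719-35501886, + strand), was at 12.0, 12.4 and 12.0 CPM in siControl and at 10.3, 9.49 and 10.2 CPM in siNONO. The groups did not overlap, and Set 2 showed the widest gap. CREM fell by 0.28 on the log2 scale (SE 0.078; edgeR adjusted p = 0.0108). The call was lost without siControl Set 2 (-0.21, edgeR adjusted p = 0.124) and without siNONO Set 2 (-0.22, edgeR adjusted p = 0.0982). These fits are in effect the same comparison of the other Sets. The call was also lost with DESeq2 (-0.28, adjusted p = 0.163). Over 15 alternatives adjusted p ran from 0.0078 to 0.163, and limma on log2(TPM + 0.1) gave the largest fall, at -0.44. CREM shares 191 exon bases with CUL2 on the opposite strand, whose counts were 1485 to 2512. The library kit keeps the strand, but the strand setting of the counting is not given in the sources used here.

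ATF1, the third factor (chr12:51157493-51214945, + strand), was at 26.6, 25.1 and 23.6 CPM in siControl and at 26.3, 27.8 and 22.2 CPM in siNONO. The groups overlapped, and Set 3 was the lowest in both. Its log2 fold change was 0.02, with a 95% interval from -0.11 to 0.15 (edgeR adjusted p = 0.851), and it was -0.01 with limma on log2(TPM + 1) and -0.04 and -0.05 without either library of Set 2.

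The CRTC genes encode coactivators that kinases of the SIK family hold in the cytoplasm and that calcineurin releases. CRTC1, the form best known from neurons (chr19:18794488-18893143, + strand), was at 22.0, 20.3 and 24.4 CPM in siControl and 21.3, 23.0 and 24.0 CPM in siNONO. The groups overlapped, with a log2 fold change of 0.03 (95% interval -0.10 to 0.17; edgeR adjusted p = 0.693), whose sign turned on the TPM scales and without either library of Set 2.

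CRTC2, the partner of NONO and a regulator of glucose production in liver (chr1:153920145-153931091, - strand), was at 48.1, 45.6 and 58.0 CPM in siControl and at 41.7, 40.5 and 43.1 CPM in siNONO. siControl Set 3 stood above the other libraries, and the groups did not overlap. CRTC2 fell by 0.27 on the log2 scale (SE 0.0538; edgeR adjusted p = 0.00126), by 0.21, 0.17 and 0.43 in the 3 Sets.

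CRTC3, the third coactivator (chr15:91073155-91188577, + strand), was at 44.5, 41.6 and 42.4 CPM in siControl and at 33.7, 32.2 and 37.4 CPM in siNONO. All siNONO libraries lay below all siControl libraries. The log2 fold change was -0.32 (SE 0.0537; edgeR adjusted p = 0.000338), with the smallest gap in Set 3, at -0.18.

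CREBBP and EP300 encode CBP and p300, paralogous histone acetyltransferases that bind phosphorylated CREB. CREBBP (chr16:3775055-3930714, - strand) was at 120, 127 and 144 CPM in siControl and at 103, 104 and 109 CPM in siNONO. The groups did not overlap, and Set 3 was the highest in both. CREBBP fell by 0.31 on the log2 scale (SE 0.0382; edgeR adjusted p = 2.99e-05).

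EP300 (chr22:41488596-41576081, + strand) was at 104, 104 and 123 CPM in siControl and at 117, 114 and 114 CPM in siNONO. The siControl library of Set 3 lay above all others, and the remaining siControl libraries lay below all siNONO libraries. The log2 fold change was 0.06 (95% interval -0.04 to 0.16; edgeR adjusted p = 0.317), with per-Set ratios of 0.16, 0.13 and -0.11. Without siControl Set 3 it was 0.15 (edgeR adjusted p = 0.00373), and without siNONO Set 3 also 0.15 (edgeR adjusted p = 0.00246). These fits are in effect the same comparison of the other Sets. On log2(TPM + 1) the log2 fold change of EP300 was -0.04, where the median over all genes tested was -0.071. Adjusted p ran from 0.00246 to 0.891 over the 15 alternatives.

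NR4A1, an immediate early gene that encodes the orphan nuclear receptor NUR77 (chr12:52416616-52453291, + strand), had estimated counts of 584, 420.45 and 404.16 in siControl and 829.21, 811 and 986.31 in siNONO, or 17.7, 15.3 and 18.4 CPM against 29.0, 29.2 and 35.3 CPM. The lowest siNONO library was well above the highest siControl library, and Set 3 was the highest in both groups. NR4A1 rose by 0.85 on the log2 scale, or 1.81-fold (SE 0.0624; 95% interval 0.72 to 0.99; edgeR adjusted p = 2.71e-07), and by 0.71, 0.93 and 0.94 in the 3 Sets. Its counts were fractional in 4 of 6 libraries, which RSEM gives where reads are split with another gene, whereas the counts of the other 9 genes were whole in every library. Its antisense neighbour NR4A1AS shares 754 exon bases with it and had at most 3.84 counts.

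PDE4D, a phosphodiesterase that degrades cAMP (chr5:58264865-59817947, - strand), was the lowest of the 10 genes, with counts of 197, 125 and 106 in siControl and 111, 124 and 107 in siNONO. These were 5.98, 4.56 and 4.83 CPM against 3.88, 4.46 and 3.83 CPM, and the groups did not overlap, although Set 2 differed by only -0.03 on the log2 scale. The log2 fold change was -0.34 (SE 0.144; 95% interval -0.65 to -0.02) and missed the threshold (edgeR adjusted p = 0.0748). It passed without siControl Set 2 (-0.48, edgeR adjusted p = 0.0319) and without siNONO Set 2 (-0.49, edgeR adjusted p = 0.0267). These fits are in effect the same comparison of the other Sets. Over the 15 alternatives adjusted p ran from 0.0267 to 0.512.

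**Figure D2:**
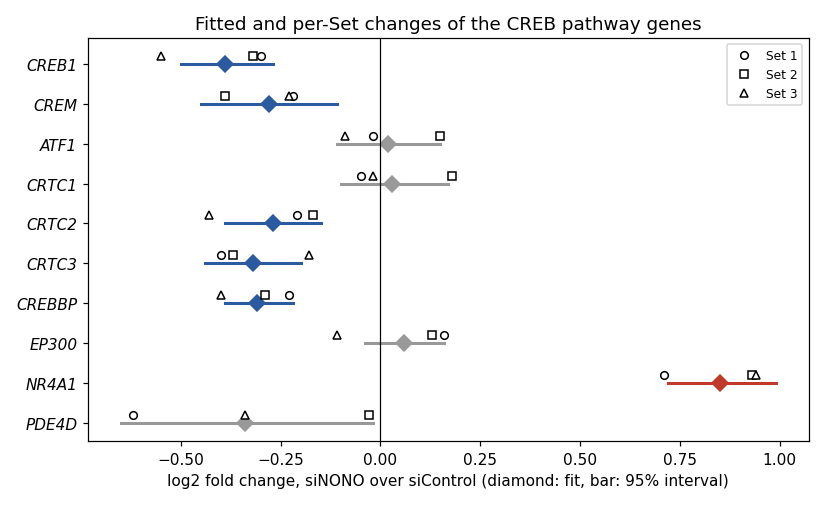
Log2 fold change (siNONO over siControl) of each gene from the edgeR fit over all genes (diamond) with its 95% interval (bar) and the log2 CPM ratio of each Set (open shapes); red was called higher, blue called lower and grey not called. NR4A1 lies at 0.85, the 5 called lower lie between -0.39 and -0.27, and ATF1, CRTC1 and EP300 lie within 0.06 of 0.

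Levels between genes were compared as TPM (the transcript level that RSEM scales for transcript length and depth). In siControl, CREB1 (37.5 ± 3.77 TPM), ATF1 (35.5 ± 2.82 TPM) and CRTC2 (33.7 ± 3.36 TPM) were the highest, and each overlapped its neighbour in this order. CREBBP followed at 27.5 ± 0.885 TPM, CREM at 23.5 ± 2.38 TPM and EP300 at 19.9 ± 1.75 TPM, of which CREM and EP300 overlapped. CRTC3 (13.6 ± 1.31 TPM) and NR4A1 (13.5 ± 1.68 TPM) overlapped as well, and CRTC1 (9.16 ± 1.28 TPM) and PDE4D (1.54 ± 0.0289 TPM) were last. In siNONO, ATF1 at 35.1 ± 0.678 TPM stood above CREB1 at 29.7 ± 1.98 TPM without overlap. NR4A1 moved from rank 8 to rank 4 of the 10, at 23.3 ± 1.48 TPM, where it overlapped CREBBP at 21.8 ± 0.660 TPM.

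Within families, the makeup of the transcript pool was read as each gene's share of the summed TPM. ATF1 made up 38.7%, 38.1% and 33.7% of the CREB family in siControl and 43.5%, 43.1% and 41.7% in siNONO, without overlap. CREBBP made up 59.1%, 58.6% and 56.6% of the CBP and p300 pair in siControl and 54%, 53.5% and 52.2% in siNONO, also without overlap. CRTC1 made up 16.2% ± 0.962 of the CRTC family in siControl and 19.2% ± 1.66 in siNONO, and CREM made up 24.4% ± 1.04 and 21.1% ± 1.87 of the CREB family. For ATF1, CREM, CRTC1, CREBBP and EP300 the exact two-sided permutation test gave p = 0.1, the smallest that 3 against 3 libraries allow, and no share could pass (adjusted p = 0.16 over 8 shares). Shares within a family add up to the whole, so the 8 are not separate results, and that of EP300 mirrors that of CREBBP. The shares of CREB1, CRTC2 and CRTC3 overlapped between groups, with exact p of 0.2, 0.4 and 0.5. Within Sets, the share of CREB1 was lower in siNONO in 3 of 3 Sets, at 37.7% against 33.8%, 38% against 37.9% and 40.8% against 36.8%, while those of CRTC2 and CRTC3 differed in direction between Sets. Exact sign flips within Sets, added after the data were seen, cannot go below p = 0.25 with 3 pairs. With shares of estimated counts in place of TPM, the difference for CREM went from -3.27 to -0.04 percentage points and that for CREB1 from -2.64 to -5.26 points.

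**Figure D3:**
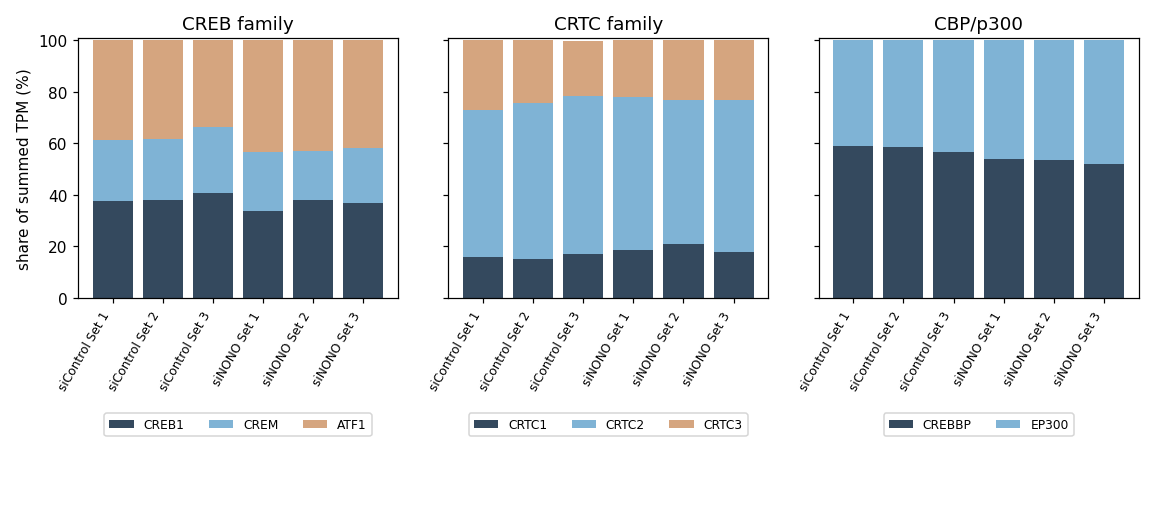
Share (%) of each gene in the summed TPM of its family, 1 stacked bar per library. The ATF1 segment is 33.7% to 38.7% in siControl and 41.7% to 43.5% in siNONO, and the CREBBP segment is 56.6% to 59.1% in siControl and 52.2% to 54% in siNONO.

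CREB1, CREM and PDE4D are known for many isoforms, so the mean transcript length that RSEM weights by isoform abundance was compared as well. The transcripts listed ranged from 4 for CRTC1 to 48 for CREM. CREB1 averaged 2911, 2523 and 2338 bases in siControl and 2713, 2361 and 2025 bases in siNONO, so it was shorter in siNONO in each of the 3 Sets although the groups overlapped. Its log2 difference was -0.13 (limma unadjusted p = 0.0388, adjusted p = 0.546). CREBBP was also shorter in each of the 3 Sets, by 0.06 on the log2 scale on average (limma unadjusted p = 0.0137, adjusted p = 0.432). With limma, 0 of the 10 genes and 0 of 17000 genes passed the threshold, while 1456 genes (8.56%) had an unadjusted p under 0.05. The length of CREM was 935 ± 81.1 and 974 ± 15.3 bases, and that of PDE4D was 4906 ± 784 and 5098 ± 460 bases, in siControl and siNONO.

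**Figure D4:**
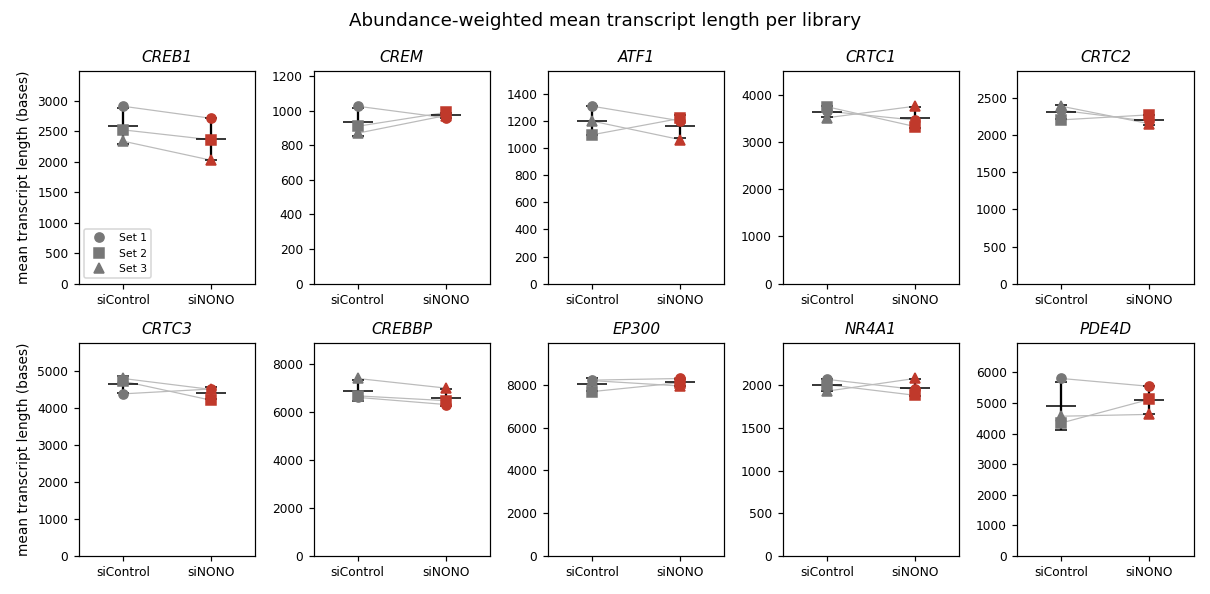
Mean transcript length (bases), weighted by isoform abundance, of each gene per library, with marker shapes for the Sets, lines joining libraries of a Set, and black bars for the mean and SD. CREB1 is shorter in siNONO within every Set, at 2591 ± 292 against 2366 ± 344 bases on average. The Sets of a group span more than this gap, from 2338 to 2911 bases in siControl and from 2025 to 2713 bases in siNONO.

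Among all genes tested, the 3 whose pattern over the 6 libraries was most like that of NR4A1 were ENSG00000279267, MFSD3 and RPS6KA2, with root mean square differences of centred log2 CPM of 0.0607, 0.0641 and 0.0651. For CREB1 these were POLR1F (0.0198), DNAJC6 (0.024) and SUZ12 (0.0252). Of the 6 genes, ENSG00000279267 was not called itself (edgeR adjusted p = 0.0609), at 0.365 to 0.858 CPM.

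The rest of the pathway was described with 8 lists of 91 genes, of which 79 were tested. The counts of each list stand beside 23.2% of all genes called higher and 23.4% called lower. The lists were chosen with earlier results of these data known, so their counts and medians are descriptions only. Of the other textbook CREB targets, 15 of 19 were tested, 8 rose and 2 fell, with a median log2 fold change of 0.24 beside -0.005 over all genes. With limma on log2(TPM + 1), 3 of them rose. AREG, a ligand of the EGF receptor, went from 137 ± 7.90 to 369 ± 9.56 CPM, a log2 fold change of 1.43 (SE 0.0328; edgeR adjusted p = 1.37e-11), with fractional counts in every library. NR4A3, the paralog of NR4A1 known as NOR1, was counted 42, 29 and 38 times in the siControl libraries, against 149, 127 and 139 times after siNONO. Its log2 fold change was 1.88 (SE 0.179; edgeR adjusted p = 2.87e-06), and all siNONO libraries were above all siControl libraries. The immediate early factor EGR1 rose by 0.36 and the clock gene PER1 by 0.27 on the log2 scale.

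The other targets are named after their values were seen. NR4A2, the third nuclear receptor of the NR4A family, rose by 0.36 (edgeR adjusted p = 0.000457), so that NR4A1, NR4A2 and NR4A3 were all called higher. PTGS2, the inducible cyclooxygenase, rose by 1.29 (edgeR adjusted p = 0.00421) at 14 to 27 counts in siControl and 37 to 61 in siNONO. SIK1 rose by 0.41 and JUNB by 0.21, whereas the G protein regulator RGS2 (-0.28) and the neurotrophin BDNF (-0.16) fell. FOS (0.13), FOSB (0.24), ATF3 (0.15), DUSP1 (-0.02) and IRS2 (-0.08) did not pass the test. PCK1, G6PC1 and SST were at 0 counts in siControl, with at most 2 counts in a siNONO library, and PPARGC1A had at most 2. Among the promoters of the 17 matched targets, 3 held the full CRE (AREG, DUSP1 and SST) and 13 held at least the core. Over all genes these shares were 2.25% and 28.4%. The list was chosen as CREB targets, so these counts say nothing about the effect of siNONO. Of these 3, AREG rose, DUSP1 was not called and SST was at 0 in all libraries.

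Of the 11 CREB-related leucine zipper genes, 2 rose and 6 fell (median log2 fold change -0.26). CREBL2 (-0.56), the membrane-bound CREB3L2 (-0.55), CREBRF (-0.51) and CREBZF (-0.30) had the lowest adjusted p. Of the other lysine acetyltransferases, 7 of 11 fell and 0 rose with edgeR (median -0.18), and 0 were higher at an unadjusted p under 0.05 or with DESeq2. These were led by KAT6A (-0.30), NCOA1 (-0.29), KAT6B (-0.25) and the histone H4 enzyme HAT1 (-0.18).

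Upstream, 3 of 5 adenylyl cyclases tested rose and 0 fell with edgeR, and 0 were lower at an unadjusted p under 0.05 or with DESeq2. ADCY7 rose by 0.45, ADCY6 by 0.36 and ADCY9 by 0.16 on the log2 scale, and with limma on log2(TPM + 1) 0 of the 5 rose. ADCY2 and ADCY8 were at 0 counts in all libraries. Of the 6 PKA subunits tested, the catalytic PRKACA (0.32) and the regulatory PRKAR1B (0.27) rose, and the catalytic PRKACB (-0.26) and the regulatory PRKAR1A (-0.25) fell. PRKACG was at 0 counts in all libraries. Of 13 other cAMP phosphodiesterases tested, 2 rose and 3 fell. PDE2A, which cGMP activates, went from 7.41 ± 0.560 to 15.9 ± 0.168 CPM (log2 fold change 1.11; edgeR adjusted p = 2.49e-07), and PDE4A rose by 0.19, while PDE8A (-0.27) and PDE4B (-0.19) fell.

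Of the 9 genes in the list of CRTC kinases and phosphatases, 1 rose and 5 fell (median -0.15). The kinase SIK1, itself a CREB target and counted in both lists, rose by 0.41. The calcineurin genes PPP3CB (-0.29) and PPP3R1 (-0.18) and the SIK activator STK11 (-0.15) fell. SIK2 (-0.16) and SIK3 (-0.21), named after their values were seen, fell as well. Without the Set as a block, 3 of the 9 fell, and with DESeq2 2 did. Of the 10 CREB kinases outside PKA, 3 rose and 2 fell (median 0.01). The ribosomal S6 kinases went both ways, with RPS6KA2 at 0.85 (12.4 ± 1.16 to 22.4 ± 1.05 CPM) and RPS6KA4 at 0.33, but RPS6KA1 at -0.44, and CAMK1 rose by 0.43.

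**Figure D5:**
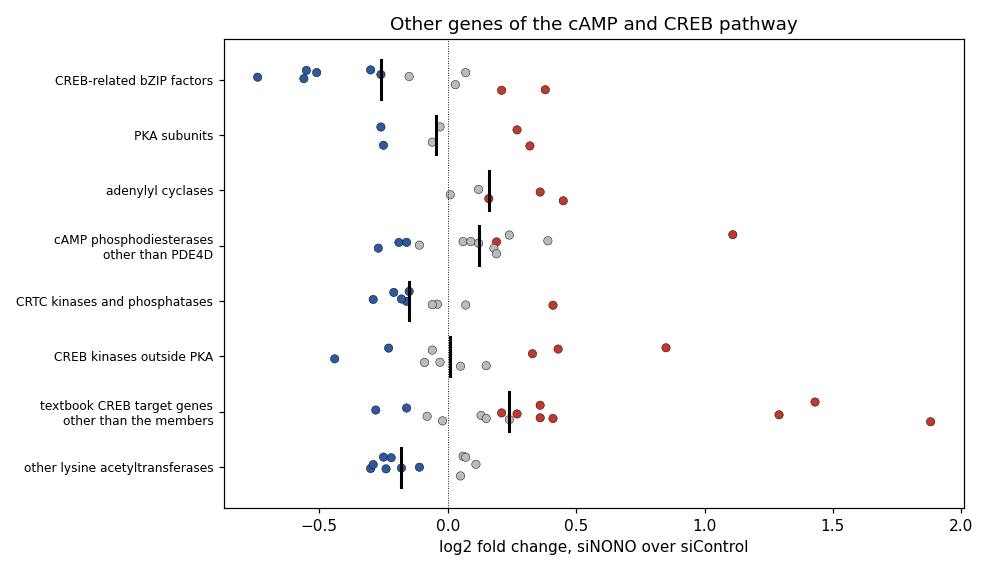
Log2 fold change (siNONO over siControl) of every tested gene of the 8 lists, 1 point per gene, with red called higher, blue called lower, grey not called and a black bar for the list's median (vertical scatter is for legibility only). The target list has its median at 0.24 and reaches 1.88, while the leucine zipper and acetyltransferase lists have medians of -0.26 and -0.18. The lists were chosen with earlier results of these data known.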

How the data were processed

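Per the labels and the study's methods, reads were trimmed by the authors (sickle), mapped by STAR to the GENCODE transcripts of GRCh37 and quantified with RSEM (version 1.3.1, as named in the submitters' processing notes). For each library they deposited the estimated count, TPM, FPKM, length and effective length of each gene. The deposited estimated counts are not normalized. The deposited TPM and FPKM values are scaled by RSEM for length and library size, and FPKM was not used. The study's design text gives the 3 libraries of a group as biological replicates.

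The deposited counts were rounded and tested with edgeR (version 4.0.16; quasi-likelihood F-test in its legacy form, TMM, filterByExpr, Set as a block) in R (version 4.3.3). P-values were adjusted by Benjamini-Hochberg over 17000 genes. Standard errors are the log2 fold change divided by the root of F. Lengths were tested with limma (version 3.58.1) on the log2 scale. The scripts were tested on simulated data. The common dispersion, 1 value shared by the 17000 genes, gave a biological coefficient of variation of 3.51%. It was fitted with the Set as a block and so leaves out differences between Sets. Replicates differed by more than sampling noise (chi-square per degree of freedom of 2.8 to 9.78). Symbols were found for 99.5% of the genes listed. For gene coordinates and overlaps, GENCODE version 44 lifted to GRCh37 was read, which is newer than the release the authors used on that build. The Set numbers come from the labels. Same-Set libraries correlated at 0.429, 0.259 and 0.509 in their deviations from group means over 10802 genes, so the Sets were taken to pair the libraries. Pairs from different Sets ran from -0.444 to 0.158, the highest being siNONO Set 2 with siControl Set 1. Deviations from a group mean sum to 0, so the negative values follow in part from the positive ones.

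The 10 genes, the lists and the tests were chosen with earlier results of these data known. Named genes were the 10, NONO, in each list the 4 with the lowest adjusted p among those called with the same direction in all Sets, list genes at 0 in a group, and the 3 genes most like the highest and the lowest called member. Endothelial marker PECAM1 was not matched by its symbol. The values of 1 immune marker are not reported here. Alternatives were no block, DESeq2's size factors, library size alone, DESeq2 (version 1.42.0), the edgeR 4 form, no filter, at least 10 counts in every library, limma on log2(TPM + 1) and log2(TPM + 0.1), and each library left out in turn. With the Set as a block, a library without its partner adds next to nothing to the contrast. Leaving out either library of a Set is thus in effect the same comparison, and the alternatives are not all separate checks.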

Additional observations from a re-analysis of the deposited data

How the results depend on the processing

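CREB1, CRTC2, CRTC3, CREBBP and NR4A1 kept their direction and their call in all 15 alternatives, and leaving out the replicate block changed the call of none of the 10 genes (6 called). DESeq2 called 5206 genes and lost CREM (-0.28). Limma called 5257 genes on log2(TPM + 1), 1643 higher and 3614 lower, and 5250 on log2(TPM + 0.1). On these scales CREM was at -0.42 and -0.44, ATF1 at -0.01 and -0.01, CRTC1 at -0.0027 and -0.0022, and EP300 at -0.04 and -0.05. The median over all genes tested was itself -0.071 and -0.090 on these scales, beside -0.005 in the main edgeR fit. With 1 library left out, CREM ran from -0.31 to -0.21, ATF1 from -0.05 to 0.06, CRTC1 from -0.03 to 0.08, EP300 from 0.01 to 0.15 and PDE4D from -0.49 to -0.18. In mean length, ATF1 ran from -0.15 to 0.01, CRTC1 from -0.12 to 0.01, EP300 from -0.02 to 0.04, NR4A1 from -0.09 to 0.01 and PDE4D from -0.02 to 0.13.

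Of the lists, the CRTC kinases and phosphatases had 3 lower without the replicate block, 2 with DESeq2 and 3 on both TPM scales, where 0 were higher. Leucine zipper genes higher numbered 0 with DESeq2 and on both TPM scales, and 1 whichever library was left out. PKA subunits higher numbered 1 with DESeq2 and on log2(TPM + 1). On both TPM scales, adenylyl cyclases higher numbered 0, phosphodiesterases 1, CREB kinases 1 and textbook targets 3. Targets lower numbered 1 with DESeq2, and 1 to 2 with a library left out; acetyltransferases higher then numbered 0 to 1. The cause was not tested. Counts were low for PDE4D (106 to 197 counts a library), NR4A3 (29 to 149), PTGS2 (14 to 61) and the called CREB3L3 (30 to 59). They were also low for other list genes that were not called, among them PDE1A (9 to 17) and PDE10A (10 to 18).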
